A study of Homo sapiens with 52 samples.

Results

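Plasma membrane damage-dependent senescence (PMD-Sen) was followed on day 3 and day 4 after sodium dodecyl sulfate (SDS), a detergent used to injure the plasma membrane, and each day was set beside untreated cells. The genes described are those whose deposited mean over the libraries of a comparison was at least 10 on both days. They numbered 14216 of the 59408 genes in a table, or 23.9%. Another 65 genes reached the limit on day 3 alone and 397 on day 4 alone, and 28304 were at 0 in both tables. The values just outside the limit were those of RPL35P1 at 9.99 and IRAG1-AS1 at 9.99, and those just inside it were AC074032.1 at 10.01 and AC034236.2 at 10.02.

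WI-38 is a fibroblast line of embryonic human lung, not transformed, whose cells stop dividing after a limited number of passages. Messenger RNA was sequenced from 2 libraries in each of 26 groups of this 1 line, 52 libraries in all. The untreated group held young cells, with no day given in the labels, so that time in culture and treatment cannot be told apart in a comparison with it. The PMD-Sen cells received 0.0090% SDS for 24 h, were washed, and were collected 3 or 4 days later. Comparison groups were PMD-Sen cells of days 2 and 6, cells given 250 nM doxorubicin, a DNA-damaging drug (DDR-Sen), and cells given 75 mM KCl, which lets calcium into the cell (Ca2+-Sen), each on days 3 and 4. The paper describes the samples of a group as independent, and p-values measure only the spread between these libraries.

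Senescent cells leave the division cycle for good. In the p53 arm of this arrest, p53 raises CDKN1A (p21), which blocks cyclin-dependent kinases and keeps RB-family proteins and the DREAM complex on the promoters of replication and mitosis genes. In the other arm CDKN2A (p16) blocks CDK4 and CDK6. Lamin B1 and HMGB proteins are commonly lost, and many senescent cells secrete cytokines, growth factors and proteases. Fibroblasts also make most of the collagen and other matrix of a tissue. A torn plasma membrane is resealed by calcium-binding annexins, lysosome exocytosis and the ESCRT-III complex, of which CHMP4B is a subunit.

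The counted reads per library were 15.3 M and 19.0 M in untreated cells, 22.9 M and 29.8 M on day 3, and 30.8 M and 32.5 M on day 4. Within a group the libraries are named by this size, as larger and smaller, because the recovered values carry no replicate number. The median absolute log2 difference between the libraries of a group was 0.138 in untreated cells, 0.132 on day 3 and 0.110 on day 4. Fibroblast identity was clear: the 13 fibroblast markers summed to 757236 to 968850 normalised counts in untreated libraries, 627999 to 630312 on day 3 and 687198 to 688955 on day 4. On each of these days, 6 of the 13 had every library solved. The others entered both sums of a day as group means, so those ranges hold only part of the spread between libraries. White blood cell markers summed to at most 34.2 and neuron markers to at most 337. Epithelial markers summed to 2820 to 3278 in untreated cells, 3669 to 3868 on day 3 and 3151 to 3545 on day 4, mostly from keratin genes that fibroblasts in culture also express. Endothelial markers summed to 2695 to 2855, 1605 to 1740 and 1712 to 2168, mostly from TEK. No read was counted in any of the 6 libraries for 3 of 11 epithelial, 2 of 9 endothelial, 5 of 13 white blood cell and 2 of 11 neuron markers. A part of these markers in the results was not tested.

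Of the genes tested, 2744 passed the test against untreated cells on day 3 and 3120 on day 4 (limma, Benjamini-Hochberg adjusted p under 0.05). On day 3, 1378 were higher and 1366 lower. On day 4, 1489 were higher and 1631 lower. Changes of 2-fold or more were mostly falls, with 101 rises and 275 falls on day 3, and 152 rises and 381 falls on day 4. The median log2 change over all genes was 0.01 on day 3 and 0.00 on day 4, and the median standard error of a gene's change was 0.11. Both days were read against the same 2 untreated libraries, so the day 3 and day 4 values of a gene are not independent of each other. The direction split depended on the scaling. Upper-quartile scaling put the median log2 change of all genes at 0.08 on day 3 and 0.09 on day 4. With it 2160 of 3214 called genes were higher on day 3 and 2335 of 3527 on day 4. Without the larger untreated library 1746 genes were called on day 3, and without the smaller day 3 library 1110. On day 4 the counts were 1533 without the larger and 1283 without the smaller day 4 library.

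Genes of DNA replication and mitosis were lower on both days, and lower again on day 4 than on day 3. All 49 measured members of this list passed the test as lower on day 3, beside 9.61% of all genes tested, and all 49 on day 4, beside 11.5%. The median fall was 1.10 on the log2 scale on day 3, or 2.14-fold, with members between -1.63 and -0.27. On day 4 it was 1.79, or 3.45-fold, with members between -2.34 and -0.40. E2F2, the remaining listed gene, was at 0 in both tables. Leaving out any 1 library kept 46 to 48 of the day 3 calls and 48 or 49 of the day 4 calls. The list was chosen with earlier results of these cells known, so its direction is described here and not offered as independent evidence.

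Among members of this list with an available RefSeq promoter, RRM2, TOP2A, KIF20A and PLK1 had the largest called falls from day 3 to day 4. The promoters of these 4 genes are shown because the list moved together and because these genes were called in all 3 comparisons. Each is the 250 bases before the annotated start in RefSeq GRCh38.p14, read 5′ to 3′ on the strand of the gene. Capitals mark 2 short motifs on either strand: the cell cycle homology region (CHR, searched as TTTGAA or TTTAAA), a known contact of the DREAM complex, and the CCAAT box. RRM2 is the small subunit of ribonucleotide reductase (chr2:10122489-10122738, plus strand). TOP2A is DNA topoisomerase II alpha (chr17:40417897-40418146, minus strand). KIF20A is a kinesin of cytokinesis (chr5:138178862-138179111, plus strand). PLK1 is polo-like kinase 1, a kinase of mitotic entry (chr16:23678639-23678888, plus strand).
RRM2: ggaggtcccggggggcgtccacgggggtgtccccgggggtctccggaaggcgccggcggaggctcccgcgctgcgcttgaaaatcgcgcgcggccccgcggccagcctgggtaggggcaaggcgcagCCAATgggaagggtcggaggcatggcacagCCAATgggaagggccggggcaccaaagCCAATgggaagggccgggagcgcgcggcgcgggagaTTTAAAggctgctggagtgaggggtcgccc
TOP2A: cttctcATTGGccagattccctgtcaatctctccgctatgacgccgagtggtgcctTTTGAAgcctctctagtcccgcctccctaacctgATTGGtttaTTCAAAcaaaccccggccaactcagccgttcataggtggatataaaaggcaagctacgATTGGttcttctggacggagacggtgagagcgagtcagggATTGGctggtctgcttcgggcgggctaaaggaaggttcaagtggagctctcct
KIF20A: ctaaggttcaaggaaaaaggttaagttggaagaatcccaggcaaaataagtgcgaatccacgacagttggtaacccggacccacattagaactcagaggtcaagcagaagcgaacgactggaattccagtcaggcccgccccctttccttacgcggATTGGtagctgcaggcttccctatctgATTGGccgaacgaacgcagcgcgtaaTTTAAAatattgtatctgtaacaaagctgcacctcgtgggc
PLK1: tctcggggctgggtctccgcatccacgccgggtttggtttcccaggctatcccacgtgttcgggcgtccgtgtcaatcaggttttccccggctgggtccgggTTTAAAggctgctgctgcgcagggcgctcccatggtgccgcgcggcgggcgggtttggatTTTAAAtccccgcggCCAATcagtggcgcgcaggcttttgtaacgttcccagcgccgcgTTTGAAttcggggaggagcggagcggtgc
In RRM2 the CHR letters stand 30 to 25 bases before the start, downstream of 3 CCAAT matches. In KIF20A they stand 41 to 36 bases before it, downstream of 2 CCAAT matches. PLK1 has 3 CHR matches, the nearest 29 to 24 bases before the start, and TOP2A has CHR matches 194 to 189 and 151 to 146 bases before it. Of the 49 measured members, 41 matched a RefSeq promoter. CHR letters stood in 19 of these (46.3%), beside 22.1% of 27305 promoters of the same length and 14.4% of the 10260 promoters of genes tested here. CCAAT stood in 29 (70.7%), beside 33% and 34.9%. A match of letters is a description of the window and not a measured site.

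The libraries behind these calls were well apart. RRM2 had 3469 and 3124 normalised counts in the untreated libraries, 1539 and 1533 on day 3, and 810 and 897 on day 4. The 3 groups did not overlap, and each later group lay below the one before. RRM2 fell by 1.10 ± 0.08 (SE) on the log2 scale on day 3 (limma adjusted p = 4.75e-04) and by 1.95 ± 0.08 on day 4 (limma adjusted p = 1.31e-05). TOP2A, which untangles chromosomes before they part, had 4991 and 4652 normalised counts untreated, 2107 and 1740 on day 3, and 1056 and 1141 on day 4. Again no group overlapped another. TOP2A was 2.52-fold lower than untreated on day 3 and 4.39-fold lower on day 4. KIF20A stood at 1410 and 1388, then 583 and 506, then 298 and 337, and PLK1 at 1143 and 1187, then 531 and 525, then 288 and 332. All 4 genes whose promoters are shown stepped down from untreated to day 3 and from day 3 to day 4 without overlap.

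MKI67, the proliferation marker Ki-67, had 4682 and 3656 normalised counts in untreated cells, 1595 and 1335 on day 3, and 966 and 982 on day 4. The day 4 libraries were the lowest and the untreated libraries the highest. MKI67 was 2.83-fold lower on day 3 (limma adjusted p = 6.18e-04) and 4.24-fold lower on day 4 (limma adjusted p = 3.78e-05), while its difference between the days, -0.58 on the log2 scale, missed the threshold (limma adjusted p = 0.134). Deep falls in this list included those of MCM10, CDC45 and CENPA. MCM10, which starts the replicative helicase, fell by 1.63 on day 3 and 2.16 on day 4 on the log2 scale. CDC45, a part of that helicase, fell by 1.44 and 2.34, and CENPA, the centromeric histone H3, by 1.51 and 2.18. The smallest change in the list was that of PCNA, the sliding clamp of DNA polymerase, which was chosen for mention after its values were seen. PCNA stood at 2323 and 2157 untreated, 1758 and 1961 on day 3, and 1650 and 1733 on day 4. Its fall of 0.27 on day 3 was lost whichever library was left out, and its fall of 0.40 on day 4 was lost without the larger day 4 library.

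Genes turned on by p53 were higher, by less than the replication genes were lower. Of 29 measured members, 18 rose on day 3 and 21 on day 4, and none fell, beside 9.69% of all genes tested called higher on day 3 and 10.5% on day 4. The median log2 change was 0.32 on day 3 and 0.51 on day 4. Without the smaller day 3 library 10 members were called on day 3. On day 4 fewer members were called when either day 4 library was left out. Of the 28 members with every library solved, 21 had both day 3 libraries above both untreated ones, beside 30.3% of all genes, and 24 had both day 4 libraries above them, beside 31.6%.

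CDKN1A, the p21 inhibitor, had 19882 and 21425 normalised counts in untreated libraries and group means of 33993 on day 3 and 42388 on day 4. Its split between the libraries of days 3 and 4 was not solved, so its group mean entered the fit. Its p-values therefore hold no spread between the SDS libraries of a day. CDKN1A was 1.65-fold higher on day 3 (limma adjusted p = 0.00407) and 2.05-fold higher on day 4 (limma adjusted p = 6.85e-04). TP53INP1, a p53 cofactor that promotes cell death and autophagy, had 801 and 860 normalised counts untreated, 1282 and 1192 on day 3, and 1503 and 1490 on day 4. GDF15, a secreted stress cytokine, had 963 and 880, then 1237 and 1229, then 1634 and 1539. In both genes the groups did not overlap and rose in that order. GDF15 was 1.34-fold higher on day 3 (limma adjusted p = 0.00773) and 1.72-fold higher on day 4 (limma adjusted p = 3.10e-04). MDM2, the ubiquitin ligase that degrades p53, rose by 0.24 on day 3 and 0.54 on day 4 on the log2 scale. EDA2R, a receptor of the TNF family, rose by 0.56 and 0.69. TNFRSF10C, a decoy receptor for TRAIL, rose by 0.75 and 0.87, with the day 3 call lost without the larger untreated or the smaller day 3 library and the day 4 call lost without the smaller day 4 library.

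Among 14 CDK inhibitors and markers of senescence, 3 rose and 5 fell on day 3, and 5 rose and 5 fell on day 4, with median log2 changes of -0.09 and -0.12. The called share was 57.1% on day 3 and 71.4% on day 4, beside 19.3% and 21.9% of all genes. CDKN2A had 569 and 566 normalised counts in untreated cells, 828 and 901 on day 3, and 872 and 866 on day 4. Both days lay above untreated and overlapped each other. CDKN2A was 1.52-fold higher on day 3 (limma adjusted p = 0.00242) and 1.53-fold higher on day 4 (limma adjusted p = 0.00130). CDKN2B (p15), an inhibitor of the same kinases, had 308 and 238, then 369 and 329, then 522 and 494. It passed the test on day 4, at 1.87-fold (limma adjusted p = 0.00291), and not on day 3, where the log2 difference was 0.36 (limma adjusted p = 0.0992). The difference between the days, 0.54 on the log2 scale, did not pass either (limma adjusted p = 0.223).

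LMNB1, which encodes lamin B1 of the nuclear lamina, had 1295 and 1097 normalised counts untreated, 425 and 337 on day 3, and 236 and 289 on day 4. The untreated libraries were the highest and the day 4 libraries the lowest, with no overlap. LMNB1 was 3.14-fold lower on day 3 (limma adjusted p = 6.51e-04) and 4.55-fold lower on day 4 (limma adjusted p = 5.92e-05). HMGB2, a chromatin protein of dividing cells, fell by 1.36 and 1.57 on the log2 scale, and HMGB1 by 0.84 and 1.00. CDKN2C (p18), listed as an inhibitor, moved with the dividing-cell genes instead: 526 and 440 normalised counts became 170 and 157 on day 3 and 128 and 121 on day 4. The calls of CDKN1A, CDKN2A, GDF15, LMNB1, CDKN2C, HMGB1 and HMGB2 stood on both days whichever library was left out. For CDKN1A, fits without a library of day 3 or day 4 kept that day's group mean at a lower weight. Those fits therefore do not show how its call depends on a single SDS library.

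**Figure D1:**
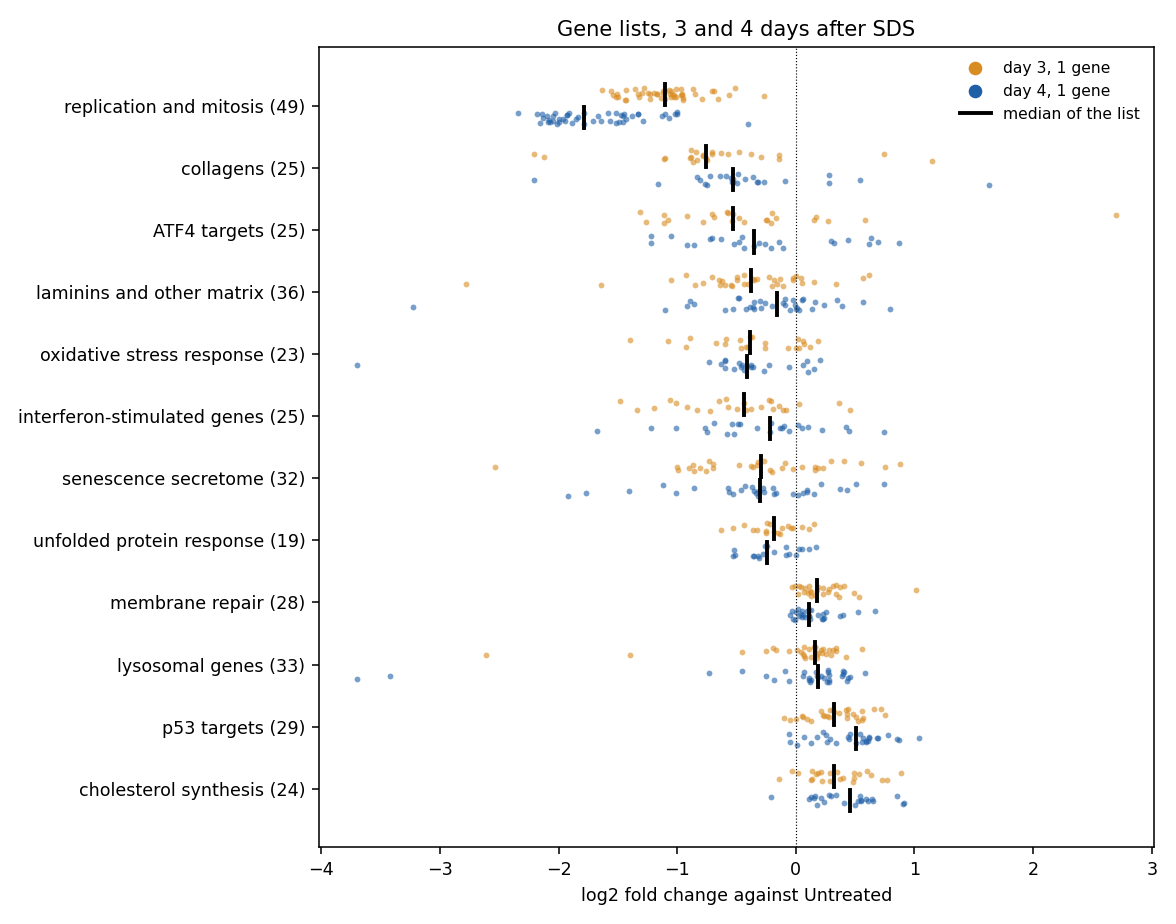
Log2 change against untreated cells (horizontal axis) of every measured member of 12 gene lists (vertical axis) on day 3 (orange) and day 4 (blue), with a black bar at each list's median. All 49 replication and mitosis genes lie below 0 on both days, with the median at -1.10 on day 3 and -1.79 on day 4, and the p53 targets lie mostly above 0, with medians of 0.32 and 0.51.

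Collagen transcripts were lower, more so on day 3 than on day 4 by their median. Of 25 measured collagen genes, 19 fell and 1 rose on day 3, with a median log2 change of -0.76. On day 4, 13 fell and 2 rose, with a median of -0.53. Over all genes, 9.61% fell on day 3 and 11.5% on day 4. Leaving out the larger untreated library left 8 of the day 4 falls. No collagen gene passed the test between the days, although in 9 of the 14 with every library solved both day 4 libraries lay above both day 3 libraries, beside 20.0% of all genes. COL1A1, the main chain of type I collagen, had 317628 and 248484 normalised counts untreated and group means of 151755 on day 3 and 194985 on day 4. It fell by 0.89 on day 3 (limma adjusted p = 0.0182), a call lost without the smaller day 3 library, and was 0.53 lower on day 4 by log2, short of the threshold (limma adjusted p = 0.0786). COL6A3, a chain of type VI collagen, fell by 1.11 on day 3 and 0.83 on day 4, and COL3A1 fell by 0.71 on day 3. The libraries of COL1A1, COL6A3 and COL3A1 on both days were entered as group means because their split was not solved. Their p-values hold no spread between the libraries of these days. Leaving out a library of a day kept the mean of that day at a lower weight. The summed fibroblast markers given above moved with these genes, since COL1A1 and COL3A1 are among them.

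The network-associated COL15A1, which links basement membrane to the matrix beside it, fell further than the main fibrillar chains. It had 545 and 375 normalised counts untreated, 108 and 98.6 on day 3, and 112 and 83.6 on day 4. Both days lay far below untreated and overlapped each other. COL15A1 was 4.35-fold lower on day 3 (limma adjusted p = 0.00101) and 4.63-fold lower on day 4 (limma adjusted p = 3.27e-04). COL14A1, which decorates collagen fibrils, had 200 and 185 normalised counts untreated, 62.4 and 26.8 on day 3 and 123 and 59.2 on day 4, and passed the test on day 3 only (limma adjusted p = 0.0104, and 0.0842 on day 4). The direction was opposite in COL11A1, a chain of the minor fibrillar type XI collagen. COL11A1 had 199 and 252 normalised counts untreated, 462 and 537 on day 3, and 605 and 804 on day 4, with no overlap among the 3 groups. It was 2.22-fold higher on day 3 (limma adjusted p = 0.00356) and 3.11-fold higher on day 4 (limma adjusted p = 4.26e-04).

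Laminins and other matrix genes followed the collagens. Of 36 measured, 17 fell and 3 rose on day 3 (median log2 change -0.38), and 9 fell and 4 rose on day 4 (median -0.16). In all, 55.6% of the list was called on day 3 and 36.1% on day 4, beside 19.3% and 21.9% of all genes, while the share of rises was close to the 9.69% and 10.5% over all genes. Every library was solved for 24 of the 36 on day 3 and 23 on day 4. Fits without a library of a day kept the group means of the rest at a lower weight. The falls numbered 10 on day 3 without the smaller day 3 library. On day 4 they numbered 14 without the smaller untreated library and 5 without the smaller day 4 library. ELN, the elastin precursor, showed the deepest fall of the list, with 207 and 351 normalised counts untreated, 30.0 and 49.3 on day 3, and 19.2 and 40.2 on day 4. Treated libraries were all far below untreated, and the days overlapped. ELN was 6.86-fold lower on day 3 (limma adjusted p = 0.00368) and 9.38-fold lower on day 4 (limma adjusted p = 0.00122). POSTN, a matricellular protein of the periosteum and of wounds, had 1363 and 993 untreated, 461 and 303 on day 3, and 640 and 458 on day 4. POSTN fell by 1.64 on day 3 and by 1.10 on day 4 on the log2 scale, the second call being lost without the larger untreated or the smaller day 4 library. FBLN1 (fibulin-1) fell by 1.05 and 0.89, and TNC (tenascin-C), entered as group means, by 0.78 and 0.92. The day 3 call of TNC was lost without the smaller day 3 library, a fit that kept its group mean at a lower weight.

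Genes that fold and cross-link collagen also had falls and no rises: 6 of 18 fell on day 3 and 7 on day 4, with medians of -0.22 and -0.16, beside 9.61% and 11.5% of all genes called lower. SERPINH1 (HSP47), the collagen chaperone, fell by 0.71 and 0.63 on the log2 scale as a group mean, and PCOLCE, which speeds removal of the collagen propeptide, by 0.72 on both days. PCOLCE had 5122 and 4054 normalised counts untreated, 2908 and 2647 on day 3, and 3010 and 2526 on day 4. Untreated libraries of PCOLCE were the highest and the days overlapped.

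Single genes with the largest falls included surface and secreted proteins. ITGA8, the integrin alpha 8 chain that binds matrix ligands, had 840 and 970 normalised counts untreated, 121 and 116 on day 3, and 164 and 156 on day 4. Every SDS library was far below both untreated libraries, and day 3 was below day 4. ITGA8 was 7.58-fold lower on day 3 (limma adjusted p = 7.09e-05) and 5.62-fold lower on day 4 (limma adjusted p = 1.96e-05). FGL2, a secreted fibrinogen-like protein, stood at 347 and 863, then 83.4 and 84.6, then 108 and 97.1, so the untreated libraries were the ones that varied. SAPCD2, a regulator of spindle orientation, fell by 1.70 and 2.36 on the log2 scale. RN7SL1, the RNA of the signal recognition particle, was 4.85-fold and 4.08-fold lower, but it has many near-identical copies and its counts are uncertain. U2AF1, a splicing factor subunit, also ranked among the largest falls and is uncertain as well: it shares reads with a near-identical copy, and it lost its call in 3 fits on day 3 and 5 fits on day 4 when a library was left out.

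The largest rises included those of CCND2 and PPP1R3C. CCND2 encodes cyclin D2, a partner of CDK4 and CDK6. It had 347 and 328 normalised counts untreated, 1006 and 1032 on day 3, and 1540 and 1526 on day 4. The groups did not overlap and the libraries within each were close. CCND2 was 3.01-fold higher on day 3 (limma adjusted p = 9.74e-05) and 4.53-fold higher on day 4 (limma adjusted p = 1.31e-05). PPP1R3C, a protein phosphatase 1 subunit that steers the enzyme to glycogen, had 1202 and 1371 untreated, 3480 and 3795 on day 3, and 4456 and 4437 on day 4, again rising at each step. It was 2.83-fold and 3.46-fold higher. QPRT, an enzyme of NAD synthesis from tryptophan, went from 706 and 715 to 1716 and 1811 and to 2114 and 2174. CPA4, a secreted carboxypeptidase, went from 3272 and 2420 to 6872 and 6461 and to 9309 and 10466. Neither gene had overlapping groups.

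A further group of large rises included both genes higher by value on day 3 and genes higher on day 4. SYNPO2L, an actin-associated protein of muscle, had 98.3 and 90.1 normalised counts untreated, 322 and 563 on day 3, and 225 and 370 on day 4. SERPINB2, an inhibitor of plasminogen activators, had 114 and 121, then 347 and 475, then 304 and 386. In both, the days overlapped each other and lay above untreated. SYNPO2L rose by 2.17 and 1.61 on the log2 scale and SERPINB2 by 1.78 and 1.54. RAB6B, a Golgi Rab protein, rose by 1.42 and 1.70, DKK2, a Wnt antagonist, by 1.24 and 1.56, NPAS1, a bHLH-PAS transcription factor, by 1.45 and 1.29, and ALS2CL by 1.41 and 1.43. The calls of these genes on both days, and those of ITGA8, FGL2, SAPCD2, ELN, COL15A1 and COL11A1, stood whichever library was left out.

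**Figure D2:**
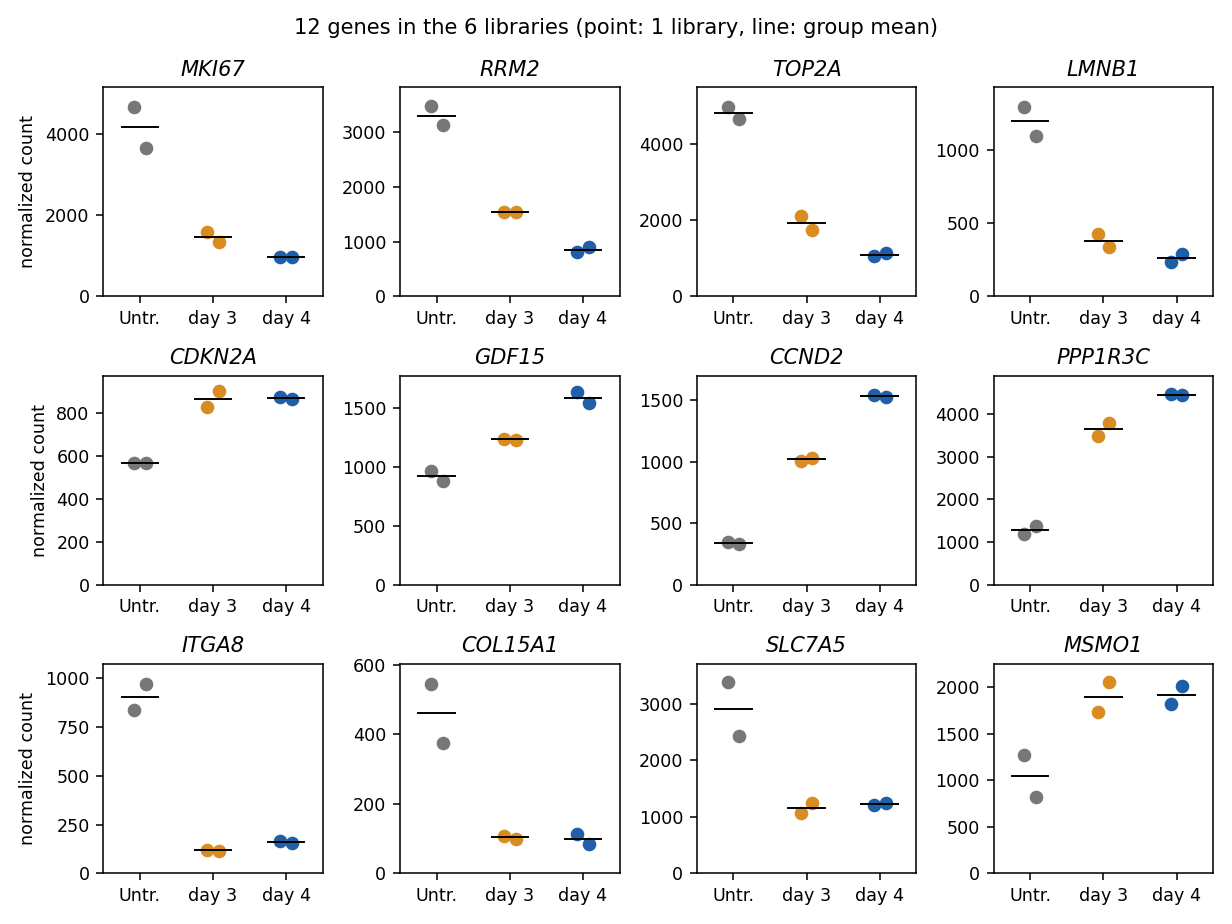
Normalised count (vertical axis, linear from 0) of each library of untreated, day 3 and day 4 cells for 12 genes, with a line at each group's mean. MKI67, RRM2, TOP2A and LMNB1 step down, CCND2, PPP1R3C and GDF15 step up, and ITGA8 and COL15A1 are low on both days, as in ITGA8 with 840 and 970 untreated against 121 and 116 on day 3.

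Targets of ATF4, the transcription factor that supplies amino acids under stress, were lower by their median. Of 25 measured, 12 fell and 1 rose on day 3 (median log2 change -0.53), and 11 fell and 1 rose on day 4 (median -0.35), beside 9.61% and 11.5% of all genes called lower. Without either day 4 library 7 falls were called on day 4. SLC7A5, the transporter of large neutral amino acids, had 3375 and 2425 normalised counts untreated, 1073 and 1247 on day 3, and 1208 and 1247 on day 4. Both days lay at the same low level, well below untreated. SLC7A5 was 2.47-fold lower on day 3 (limma adjusted p = 0.00123) and 2.33-fold lower on day 4 (limma adjusted p = 8.54e-04). PHGDH, the first enzyme of serine synthesis, had 2047 and 1385, then 741 and 662, then 751 and 692, with the same order. PHGDH was 2.40-fold and 2.33-fold lower. ASNS, asparagine synthetase, was near the counting limit, at 7.50 to 29.4 normalised counts in all 6 libraries, and did not pass the test. PCK2 did not pass either, with 61.5 and 32.1 on day 3 against 7.66 and 4.66 untreated, and its libraries differed 4-fold or more in 8 of 22 other groups.

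Chaperones of the unfolded protein response fell in 4 of 19 cases on day 3 and 9 on day 4, and none rose. The falls were 21.1% of the list on day 3, beside 9.61% of all genes called lower, and 47.4% on day 4, beside 11.5%. Without the larger untreated library, or without either day 4 library, 3 falls were called on day 4. HSP90B1 (GRP94), entered as group means, fell by 0.63 and 0.53 on the log2 scale, PDIA4 by 0.53 and 0.51, MANF by 0.33 and 0.52, and DNAJB11 by 0.44 and 0.35. The list medians were -0.18 and -0.24. The day 3 call of MANF was lost without the larger day 3 library.

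The oxidative stress list, largely targets of NRF2, had 11 falls on day 3 and 12 on day 4 among 23 genes, and no rise. Its medians were -0.39 and -0.41, and 9.61% and 11.5% of all genes were called lower. Without the larger day 3 library 7 falls were called on day 3. On day 4 there were 6 falls without the smaller untreated library, 4 without the larger day 4 library and 7 without the smaller one. SLC7A11, which imports cystine for glutathione, had 5800 and 7187 normalised counts untreated, 2959 and 3142 on day 3, and 4378 and 4612 on day 4. Day 3 was the lowest and day 4 lay between it and untreated, with no overlap. SLC7A11 was 2.12-fold lower on day 3 (limma adjusted p = 7.02e-04) and 1.44-fold lower on day 4 (limma adjusted p = 0.00759), the latter call being lost without the larger day 4 library. The difference between the days was 0.56 on the log2 scale and missed the threshold (limma adjusted p = 0.0796). GCLM, a subunit of the enzyme that starts glutathione synthesis, had 2161 and 2708, then 1328 and 1277, then 1599 and 1597. Day 3 of GCLM was again below day 4. HMOX1, heme oxygenase 1, had 870 and 1469 untreated, 632 and 554 on day 3, and 761 and 726 on day 4, and passed on day 3 only (limma adjusted p = 0.0166, and 0.0671 on day 4), a call lost without the smaller day 3 library.

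Genes of cholesterol synthesis were higher. Of 24 measured, 9 rose on day 3 and 11 on day 4 and none fell, with median log2 changes of 0.32 and 0.46, beside 9.69% and 10.5% of all genes called higher. The absence of falls on day 3 did not hold without the smaller untreated library. In 16 of the 24, both SDS libraries lay above both untreated ones on each day, beside 30.3% of all genes on day 3 and 31.6% on day 4. The counts of calls depended on single libraries: on day 3 they were 15 without the larger untreated library and 3 without the smaller day 3 library, and on day 4 they were 18 without the larger untreated library and 4 without the smaller day 4 library. MSMO1, which removes methyl groups from sterols, had 1268 and 821 normalised counts untreated, 1735 and 2062 on day 3, and 1826 and 2016 on day 4. The SDS libraries lay above both untreated ones and the days overlapped. MSMO1 was 1.85-fold higher on day 3 (limma adjusted p = 0.0124) and 1.88-fold higher on day 4 (limma adjusted p = 0.00912), calls lost without the smaller library of the day. DHCR7, the last enzyme of the pathway, had 1342 and 926, then 1826 and 1883, then 1990 and 2186. DHCR7 was 1.66-fold and 1.87-fold higher, the day 3 call being lost without the smaller day 3 library. FDFT1 and TM7SF2 did not pass the test, at log2 differences of 0.77 and 0.63 on day 3.

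Membrane repair genes rose in part. Of 28 measured, 10 rose on day 3 and 5 on day 4 and none fell, with medians of 0.18 and 0.11. The rises were 35.7% of the list on day 3, beside 9.69% of all genes called higher, and 17.9% on day 4, beside 10.5%. None of the 28 passed the test between the days. The day 3 count was 5 without the larger untreated library, 6 without the larger and 2 without the smaller day 3 library. The day 4 count was 2 without the larger untreated library or either day 4 library, and 3 without the smaller untreated library. ANXA4, an annexin of membrane resealing, had 1340 and 1590 normalised counts untreated, 2048 and 2062 on day 3, and 2104 and 2092 on day 4. Both days lay above untreated at nearly the same level, 1.41-fold (limma adjusted p = 0.00688) and 1.44-fold (limma adjusted p = 0.00395). ANXA2, entered as group means of 77170 and 69008 against 52576 and 54157 untreated, rose by 0.53 and 0.37 on the log2 scale. The ANXA2 call was lost on day 3 without the smaller day 3 library and on day 4 in 4 of 6 fits. For ANXA2, fits without a library of a day kept the group mean of that day at a lower weight. SMPD1, the acid sphingomyelinase released by lysosomes at a wound, rose by 0.34 and 0.40, its day 3 call being lost without the smaller untreated or smaller day 3 library. DYSF (dysferlin) was low, at 11.5 to 31.1 normalised counts, and did not pass.

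CHMP4B, the ESCRT-III subunit that closes membrane wounds, did not pass the test on either day. Its libraries had 3038 and 3057 normalised counts untreated, 2914 and 3051 on day 3, and 3012 and 3028 on day 4. Day 3 overlapped both other groups, and both day 4 libraries lay just below both untreated ones. Its log2 differences from untreated were -0.03 on day 3 (limma adjusted p = 0.745) and -0.01 on day 4 (limma adjusted p = 0.897).

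Lysosomal genes moved in both directions, mostly up: 8 rose and 3 fell of 33 on day 3, and 14 rose and 5 fell on day 4, with medians of 0.16 and 0.19. Of the list 33.3% was called on day 3 and 57.6% on day 4, beside 19.3% and 21.9% of all genes, while the falls of day 3 were close to the 9.61% over all genes. On day 3 the rises were 5 without the larger and 4 without the smaller untreated library, 4 without the larger and 2 without the smaller day 3 library, and 3 without either day 4 library. On day 4 they were 9 without the smaller untreated library, 7 without the larger and 6 without the smaller day 4 library. The falls ran from 1 to 4 on day 3 and from 2 to 5 on day 4 with a library left out. ATP6V0D1, a subunit of the proton pump that acidifies lysosomes, had 2504 and 2714 normalised counts untreated, 3693 and 3987 on day 3, and 3663 and 4145 on day 4. Both days lay above untreated, at 1.47-fold and 1.49-fold, and overlapped each other. NPC1, which exports cholesterol from lysosomes, fell by 0.73 on the log2 scale on day 4 (limma adjusted p = 0.0260).

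Genes of the actin cytoskeleton under serum response factor (SRF) had 6 rises and 1 fall among 23 on day 3 and 3 rises and 4 falls on day 4. On each day 30.4% of the list was called, beside 19.3% and 21.9% of all genes. Every library was solved for only 7 of the 23 on day 3 and 8 on day 4. The rest entered as group means, with no spread between the libraries of the day. Fits without a library of a day kept these means at a lower weight. On day 3 the rises were 3 without the smaller untreated or the smaller day 3 library, and on day 4 there was 1 rise without either day 4 library. The day 4 falls numbered 0 without the larger day 4 library, 1 without the larger untreated or the smaller day 4 library and 2 without the smaller untreated library. CNN1 (calponin 1), a smooth muscle protein, had 3545 and 3157 normalised counts untreated, 6133 and 6502 on day 3, and 4747 and 5970 on day 4. Day 3 was the highest and did not overlap day 4. CNN1 was 1.89-fold higher on day 3 (limma adjusted p = 0.00166) and 1.59-fold higher on day 4 (limma adjusted p = 0.00396). ACTA2, smooth muscle actin, passed on day 3 with a group mean of 12369 against 7159 and 7806 untreated (limma adjusted p = 0.00942), and stood at 7200 and 9517 on day 4 (limma adjusted p = 0.453). ZYX (zyxin) differed 4-fold or more between libraries in 7 of 22 other groups and is uncertain.

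The list of YAP and TEAD targets had 1 rise and 6 falls among 24 on day 3 and 3 rises and 3 falls on day 4. The called share on day 3 was 29.2%, beside 19.3% of all genes, the 3 rises and 3 falls of day 4 were close to the 10.5% and 11.5% over all genes, and the day 3 falls numbered 3 without the larger untreated library or either day 3 library. CCN1, a matricellular protein, fell by 0.50 and 0.49 on the log2 scale, with its day 4 libraries entered as a group mean, and RBMS3, an RNA-binding protein, by 0.56 and 0.59. The TGF-beta and BMP list had 1 rise and 6 falls among 29 on day 3 and 4 rises and 7 falls on day 4, with a called share of 24.1% and 37.9% beside 19.3% and 21.9% of all genes. Its day 4 rises numbered 2 without the smaller untreated library and 1 without either day 4 library. Its falls on day 3 were 1 without the smaller untreated or the larger day 3 library and 3 without the smaller day 3 library. On day 4 they were 4 without the smaller untreated or the smaller day 4 library and 3 without the larger day 4 library. FST (follistatin), an activin antagonist, had 8882 and 9345 normalised counts untreated, 5027 and 6299 on day 3, and 4461 and 5439 on day 4. Both days of FST lay below untreated and overlapped each other, with falls of 0.70 and 0.89.

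The secretome list, cytokines, growth factors and proteases known from senescent cells, had more falls than rises. Of 44 listed genes 32 were measured, and 3 rose and 8 fell on day 3, while 2 rose and 8 fell on day 4, with medians of -0.29 and -0.30. The rises of day 3 were close to the 9.69% of all genes called higher, while 9.61% of all genes fell on day 3 and 11.5% on day 4. With a library left out the rises ran from 1 to 6 on day 3 and from 1 to 3 on day 4. Falls numbered 5 without the smaller day 3 library on day 3, and 4 without either day 4 library on day 4. The 12 unmeasured members included IL1A, IL1B and CCL5, below a mean of 10. IL6 had 58.7 and 91.7 normalised counts untreated, 32.4 and 56.8 on day 3, and 69.2 and 48.1 on day 4, and CCL2 had 605 and 901, then 568 and 496, then 1248 and 882. Neither cytokine passed the test on either day, with limma adjusted p of 0.160 and 0.523 for IL6 and 0.142 and 0.116 for CCL2. IL6 overlapped between untreated and day 4, as did CCL2. On day 3 both libraries of each cytokine lay below both untreated ones, as in 29.4% of all genes. CXCL12, a chemokine that fibroblasts secrete at rest, had 387 and 449, then 170 and 254, then 203 and 180, and was 2.00-fold and 2.17-fold lower. TNFRSF11B (osteoprotegerin), a decoy receptor for RANKL, fell from 18074 and 15116 to 8810 and 7833 on day 3 and to a group mean of 9136 on day 4. NRG1 (neuregulin 1), a ligand of ERBB receptors, rose from 944 and 863 to 1535 and 1789 on day 3 and 1404 and 1615 on day 4, or 1.84-fold and 1.67-fold. MMP1, interstitial collagenase, had 3363 and 5658 untreated, 6420 and 8339 on day 3 and 3203 and 3535 on day 4. It passed on day 3 only (limma adjusted p = 0.0450, lost in 4 of 6 fits with a library left out).

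Interferon-stimulated genes were lower by their median, -0.44 on day 3 and -0.22 on day 4. Of 35 listed 25 were measured, and 7 fell and 1 rose on day 3, while 6 fell and 2 rose on day 4. Of all genes, 9.61% and 11.5% fell and 9.69% and 10.5% rose. These counts rested on single libraries: on day 3 there were 3 falls without the larger untreated and 1 without the smaller day 3 library, and on day 4 there was 1 without the larger untreated or the smaller day 4 library. OAS3, a sensor of double-stranded RNA, had 375 and 213 normalised counts untreated, 117 and 105 on day 3, and 92.8 and 82.8 on day 4. Its groups did not overlap, and it fell by 1.34 and 1.68 on the log2 scale, the day 3 call being lost without the smaller day 3 library.

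Day 4 was then compared with day 3 directly. At the adjusted threshold 36 genes differed, 0.253% of those tested, and 1573 at an unadjusted p under 0.05. Lower on day 4 were 33 genes (0.232%) and higher were 3 (0.0211%). Of the 49 replication and mitosis genes 14 were among the 33, and in all 49 both day 4 libraries lay below both day 3 libraries, beside 23.7% of all genes. Their median log2 difference was -0.53, with members between -0.94 and -0.14. The 14 calls rested on having every library of both days: 0 remained without the larger day 3 or the larger day 4 library, 1 without the smaller day 3 library and 4 without the smaller day 4 library. All 36 genes kept their direction without any 1 library. A fit over all groups whose counts were recovered called 1 gene, higher on day 4.

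BIRC5 (survivin), which holds the chromosomal passenger complex together, had 733 and 769 normalised counts on day 3 and 398 and 382 on day 4, with 1525 and 1756 in untreated cells. The days were apart and both were below untreated. BIRC5 fell by 0.94 on the log2 scale between the days. UBE2C, the ubiquitin-conjugating enzyme of the anaphase-promoting complex, went from 255 and 255 to 130 and 133, a fall of 0.95. NCAPG, a condensin subunit, went from 504 and 425 to 212 and 246, and PIMREG, a mitotic regulator, from 294 and 282 to 126 and 152. DEPDC1 (457 and 404 to 208 and 247), TTK, a spindle checkpoint kinase (206 and 213 to 110 and 116), and MAD2L1, a checkpoint protein (350 and 363 to 186 and 208), completed the largest falls among genes with stable libraries. No promoter sequence is shown for BIRC5, TTK or MAD2L1.

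The 3 genes higher on day 4 than on day 3 were CCND2, by 0.59 ± 0.07 (SE) on the log2 scale, ADAMTS5, by 0.95 ± 0.10, and SBNO2, by 1.80 ± 0.21. ADAMTS5, a protease of the proteoglycan aggrecan, had 366 and 364 normalised counts untreated, 366 and 393 on day 3, and 683 and 784 on day 4. It stood at the untreated level on day 3 and 2.00-fold above it on day 4 (limma adjusted p = 0.738 and 4.23e-04). SBNO2, a transcriptional coregulator, had 297 and 449 untreated, 187 and 138 on day 3, and 556 and 569 on day 4. Day 3 of SBNO2 was below untreated and day 4 above it, although the rise over untreated did not pass the test (limma adjusted p = 0.0630). Each of these 3 calls was lost without at least 1 library of day 3 or day 4.

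Of the 36 genes, those with the largest differences between the days by value were ones whose libraries disagreed elsewhere. TMEM50B had 220 and 232 normalised counts on day 3 and 9.58 and 13.4 on day 4, CYFIP1 had 594 and 415 against 29.5 and 31.6, and SQSTM1, the autophagy receptor p62, had 1000 and 1418 against 173 and 335. In the other groups of the series the libraries of 1 group differed 4-fold or more in 7 of 22 groups for TMEM50B, 6 for CYFIP1 and 10 for SQSTM1. The part of such library-to-library jumps in these differences was not tested. SQSTM1 also counts in the lysosomal and oxidative stress lists above, as a fall of 1.40 on day 3 and 3.70 on day 4 on the log2 scale.

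**Figure D3:**
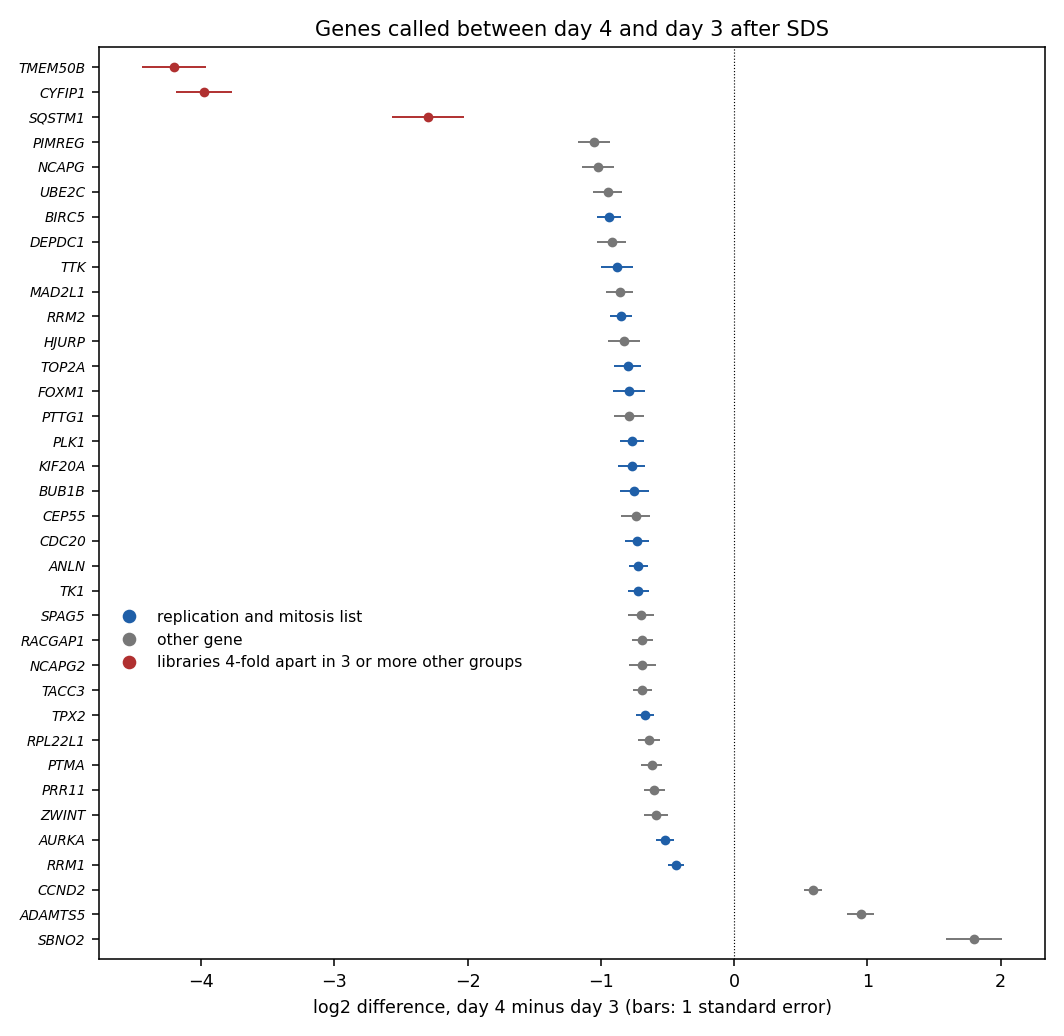
Log2 difference of day 4 from day 3 (horizontal axis, bars ± 1 SE) for the 36 genes that passed the test, with genes of the replication and mitosis list in blue, other genes in grey and genes with 4-fold library gaps in at least 3 other groups in red. The 3 red genes are TMEM50B, CYFIP1 and SQSTM1, and the genes right of 0 are CCND2, ADAMTS5 and SBNO2 at 0.59, 0.95 and 1.80.

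The neighbouring days placed these changes in the course after SDS. They were fitted together with the other inducers over 9 groups and 18 libraries, on a scaling of their own, so normalised counts in this fit run higher than those above. Between day 2 and day 3, 1141 genes differed (8.03%), 515 higher (3.62%) and 626 lower (4.40%) on day 3. Of the replication and mitosis list, 30 of 49 fell in this step, with a median of -0.61. Matrix genes turned up over the same step, with 10 of 36 laminin and matrix genes and 4 of 25 collagens rising and none falling, and so did unfolded protein response genes, with 9 of 19 rising. Between day 4 and day 6, 403 genes differed (2.83%), and 2 replication genes fell (median -0.19), beside 1.18% of all genes called lower. The list's median level relative to untreated was -0.52, -1.11, -1.79 and -1.97 on the log2 scale on days 2, 3, 4 and 6.

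MMP1 moved back and forth over these days, with group means of 5477 normalised counts untreated, 21219 on day 2, 8884 on day 3, 4081 on day 4 and 10400 on day 6. MMP1 fell by 1.26 on the log2 scale from day 2 to day 3 (limma adjusted p = 0.00561) and was 1.32 higher on day 6 than on day 4 (limma adjusted p = 0.00857). ITGA8 stayed low from day 2 to day 4, at 179, 142 and 194 against 1099 untreated, and stood at 423 on day 6, with libraries of 266 and 580. SYNPO2L was at 524 and 533 on days 2 and 3, 360 on day 4 and 151 on day 6, near the 114 of untreated cells. MMP1, ITGA8 and SYNPO2L were chosen for this comparison after their values were seen.

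Against doxorubicin, PMD-Sen cells of day 3 differed in 1438 genes (10.1%) and those of day 4 in 287 (2.02%). The clearest group was again replication and mitosis, where SDS cells stood higher: 46 of 49 genes on day 3, beside 5.75% of all genes called higher, and 38 on day 4, beside 1.44%, with medians of 1.69 and 0.99. MKI67 had 1925 and 1604 normalised counts after SDS on day 3 against 264 and 323 after doxorubicin, and 1171 and 1189 against 429 and 306 on day 4. The SDS libraries were far above the doxorubicin libraries on both days, and both were below the 5680 and 4442 of untreated cells. Of the p53 targets, 11 of 29 were lower after SDS than after doxorubicin on day 3 and 2 higher, beside 4.36% of all genes called lower, and on day 4 there was 1 in each direction, beside 0.584% called lower. CDKN1A was 0.45 lower after SDS on day 3 by log2 (limma adjusted p = 0.00275) and did not pass on day 4 (log2 difference -0.06, limma adjusted p = 0.762). GDF15 was lower after SDS on both days, by log2 differences of -0.95 and -0.53. Collagens were lower after SDS in 10 of 25 cases on day 3, with none higher, and in 1 case with 2 higher on day 4. IGFBP2, a secreted binding protein of insulin-like growth factors, stood at 417 after SDS and 2154 after doxorubicin on day 3, and at 471 and 2254 on day 4 (limma adjusted p = 4.89e-05 and 2.51e-04). With scaling by library totals, the day 4 difference from doxorubicin had 167 genes higher and 158 lower in place of 204 and 83.

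Against KCl, far fewer genes passed: 50 on day 3 (0.352%, with 1718 at an unadjusted p under 0.05) and 84 on day 4 (0.591%, with 1855). A gene that did not pass is not thereby shown to be alike in the 2 treatments. No replication gene differed on day 3 (median 0.10), when 0.120% of all genes were called higher and 0.232% lower, and 12 of 49 were lower after SDS on day 4 (median -0.56), beside 0.352% of all genes called lower. RRM2 had 982 and 1086 normalised counts after SDS on day 4 and 1897 and 2098 after KCl (limma adjusted p = 0.0102), while on day 3 it had 1858 and 1842 against 1845 and 1679. The replication list's median level after KCl was -1.23 on day 3 and -1.20 on day 4, beside -1.11 and -1.79 after SDS. No collagen or p53 target passed the test against KCl on either day.

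A small set of receptor and secreted genes stood lower after SDS than after both other treatments on both days, named after their values were seen. CHRM2, the muscarinic M2 receptor, had 2278 and 2410 normalised counts on day 3 and 2763 and 2776 on day 4 after SDS. After doxorubicin and KCl it had 4048 to 5038 on these days, the range in which untreated cells (4635 and 4756) also lay. The log2 differences of CHRM2 were -1.04 and -0.77 from doxorubicin and -1.06 and -0.61 from KCl, all past the threshold. FLT1 (VEGF receptor 1) stood at 109 and 126 after SDS, 341 and 318 after doxorubicin, 252 and 241 after KCl and 363 untreated, and TNFRSF11B at 10022 and 11069, 19295 and 16976, 18160 and 18465, and 20147. Both genes passed the test in all 4 comparisons. ITGA8 was lower after SDS than after KCl on day 3 (142 against 559, limma adjusted p = 0.00494) and missed the threshold on day 4 (194 against 404, limma adjusted p = 0.0733). In the other direction PPP1R3C and QPRT stood higher after SDS than after doxorubicin on both days, by 0.59 and 0.86 for PPP1R3C and by 0.61 and 0.57 for QPRT, and did not pass against KCl.

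**Figure D4:**
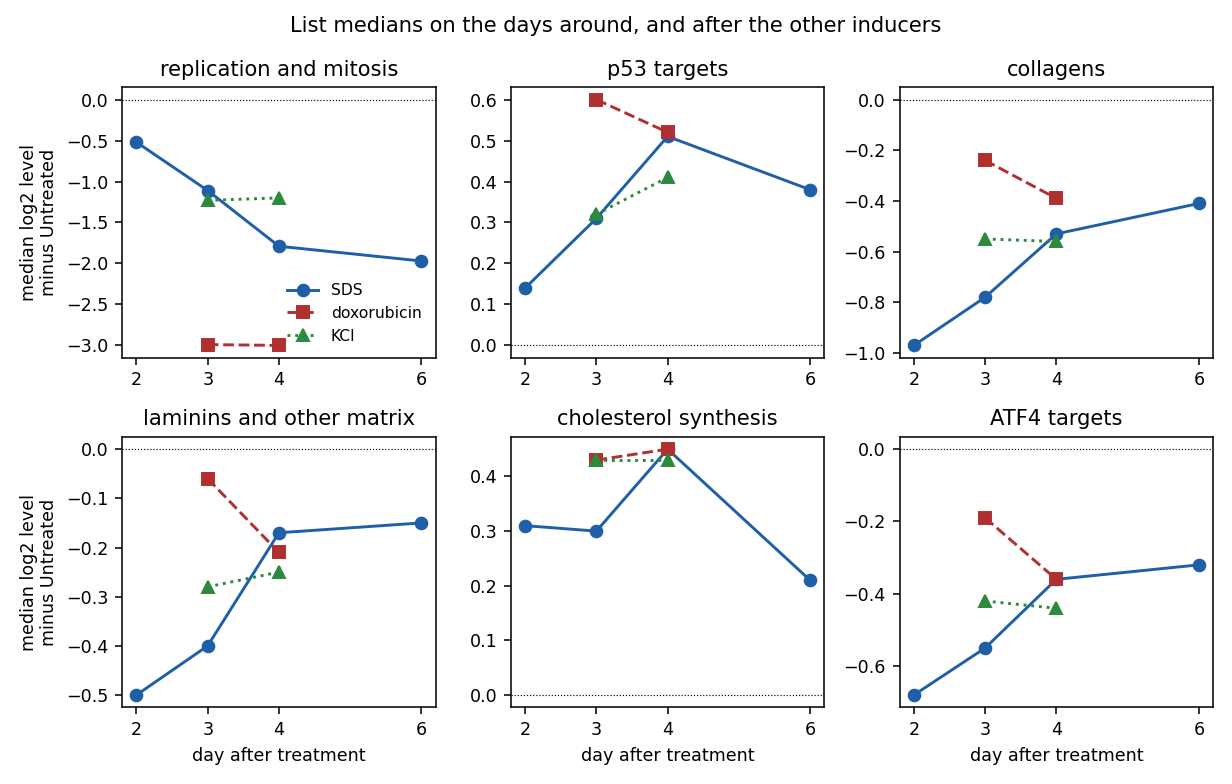
Median log2 level relative to untreated cells (vertical axis) of 6 gene lists by day (horizontal axis), for SDS on days 2, 3, 4 and 6 and for doxorubicin and KCl on days 3 and 4. The replication and mitosis median runs from -0.52 on day 2 to -1.97 on day 6 after SDS, beside -2.99 and -3.00 after doxorubicin and -1.23 and -1.20 after KCl.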

How the data were processed

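Messenger RNA of WI-38 cells was sequenced as paired ends on NovaSeq instruments. The submitters' processing notes name Trim Galore, HISAT2, HTSeq, featureCounts and DESeq2, and the genome builds GRCh38 and hg38, without roles or versions. The authors deposited for each treatment day a table comparing it with untreated cells, and the signal used here is the mean of normalised counts per gene that the authors computed over the libraries compared. The authors' log2 fold changes, standard errors, test statistics, p-values and adjusted p-values in the same tables were not used. Columns of other per-sample values numbered 0.

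The mean in a table is the average of 4 libraries' counts, each divided by a size factor. The weights were read from genes with 1 read in 1 library, and whole counts per library were then solved by lattice reduction over 24 tables, of which 10 with 15 digits share the untreated counts. All 39968 genes above 0 in those 10 tables were solved to rounding, and 2 separate sets of 5 tables gave the same untreated counts for 39966 of 39966 genes. For 389 genes the split between the libraries of a day stayed unsolved, and the group mean entered with a weight of 2. These are genes of high counts, for which several splits give the same mean or, at the highest means, no split was sought. Their p-values hold no spread between the libraries of such a group. A fit that left out 1 library of the group kept the mean of both, with a weight of 1. Counts of list members called without a library of day 3 or day 4 include such genes. A row of each table that names no gene was left out (0.00166% of the counts on day 3 and 0.00199% on day 4).

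Counts were scaled by a median of ratios and tested as log2(normalised count + 1) with limma 3.58.1 (R 4.3.3) with a mean-variance trend, where the 6 libraries of 3 groups share 1 estimate of the spread. A fold change is on this scale and understates the change of low genes. P-values were adjusted by Benjamini and Hochberg over all 14216 genes and called under 0.05. With 2 libraries against 2, an exact permutation test cannot go below 0.333, so no gene was tested that way. Neighbouring days and the other inducers were fitted over 9 groups.

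The 24 gene lists were written from general knowledge, and the genes and lists were chosen with earlier results of these data known. Named genes are the 12 largest rises and falls called on both days with a mean of at least 100, the 8 largest rises and falls of day 4 against day 3, the 4 members of each list with the largest mean change, and 10 senescence and membrane repair genes, and a few of these genes are not reported here. Others are marked in the text as chosen after their values were seen or are list members given by value. Lists are described by counts and medians with no test of their own. Promoters come from RefSeq GRCh38.p14. The steps were checked on simulated data. Python 3.11.15, NumPy 2.4.6, pandas 2.3.3, SymPy 1.14.0 and matplotlib 3.10.9 were used. Alternatives were other scalings, pseudocounts of 0.5 and 5, a mean of at least 100 or no filter, voom weights, other sets of groups and leaving out each library.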

Additional observations from a re-analysis of the deposited data

Results flagged for a closer look

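Day 4 differed from day 3 in 36 genes by a test of the difference itself (limma, adjusted p under 0.05). Among those with a mean of at least 100 on both days, the 8 largest falls and the 3 rises had log2 differences of day 4 from day 3 of -2.30 for SQSTM1, -1.05 for PIMREG, -1.02 for NCAPG, -0.95 for UBE2C, -0.94 for BIRC5, -0.92 for DEPDC1, -0.88 for TTK, -0.86 for MAD2L1, 0.59 for CCND2, 0.95 for ADAMTS5 and 1.80 for SBNO2. SQSTM1 stands apart from the others because its libraries also differed 4-fold or more within 10 of 22 other groups.

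SDS cells differed from doxorubicin cells of the same day in 1438 genes on day 3 and 287 on day 4. They differed from KCl cells in 50 genes on day 3 and 84 on day 4.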

How the results depend on the processing

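No paired analysis was possible because the recovered libraries cannot be matched to the replicate numbers of the labels. Leaving out 1 library at a time gave 1110 to 2132 called genes on day 3, 1283 to 3039 on day 4 and 5 to 59 between the days, in place of 2744, 3120 and 36. Between the days there were 59 and 56 without the larger and the smaller untreated library, 7 and 5 without the larger and the smaller day 3 library, and 7 and 10 without the larger and the smaller day 4 library. Of the called genes, 924 on day 3, 1056 on day 4 and 2 between the days (TMEM50B and CYFIP1) passed whichever library was left out, and all 2744, 3120 and 36 kept their direction. A log2 change of at least 1 left 376, 533 and 6 genes. Between the days, 98 genes were called with no filter, 1 with all groups in the fit, and 80 after genes with 4-fold library gaps were left out, an alternative chosen after seeing the data. The cause of these differences was not tested. Scaling by library totals moved the median of the p53 targets on day 3 to 0.30, of the actin and SRF list to 0.05 on day 3 and -0.06 on day 4, and of the membrane repair list on day 3 to 0.16. A pseudocount of 5 moved the single white blood cell marker on day 4 to -0.47. The other 91 of 96 list medians moved by less than the spread between replicates, and none of the 96 reversed. Scaling by totals gave 1276 higher and 1566 lower genes on day 3, and 749 and 721 against doxorubicin on day 3. Of 25476 values of 512 named genes under 17 alternatives, 24263 kept their side of the threshold, 853 lost it and 360 gained it. Among values called in the main fit or the alternative, 0 changed direction. A change of direction in a gene called in neither was not counted. Untreated libraries are the shallowest and enter both comparisons.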

Other observations

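A list of histone genes, which held linker histones, replacement variants and several core histones of the histone clusters, was split. Of 16 measured, 7 rose and 7 fell on day 3, and 7 rose and 8 fell on day 4 (limma, adjusted p under 0.05), a called share of 87.5% and 93.8% beside 19.3% and 21.9% of all genes. The named rises were mostly H2B genes of the clusters, and the named falls were replacement variants. H2BC12 had 863 and 1004 normalised counts in untreated cells, 2232 and 2335 on day 3, and 2310 and 2586 on day 4. H1-2, a linker histone, had 429 and 563, then 939 and 967, then 1173 and 1234. Both genes lay above untreated in every SDS library. H2BC21 rose by 0.88 on day 3 and 1.22 on day 4 on the log2 scale, H2BC4 by 0.96 and 1.12, and H2BC8, which is not in the list, by 1.48 and 1.63. H2AZ1, a variant of dividing cells, fell by 0.62 and 1.04, and H2AX, the variant phosphorylated at DNA breaks, by 0.61 and 1.03. Histone genes share stretches with near-identical copies, so their counts are uncertain, and H2AZ1 and H2AX were named after their values were seen.

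In the axis of insulin-like growth factors, 2 of 17 genes rose and 1 fell on day 3, and 3 rose and none fell on day 4. The called share was 17.6% on each day, beside 19.3% and 21.9% of all genes. On day 4 all called members were rises, beside 10.5% of all genes called higher. PAPPA, a protease that frees these factors from their binding proteins, had 1529 and 1895 normalised counts untreated, 2454 and 2631 on day 3, and 3891 and 3784 on day 4. Its groups did not overlap, and it was 1.49-fold and 2.25-fold higher (limma adjusted p = 0.00679 and 1.58e-04). STC2, which inhibits PAPPA, was 1.20-fold and 1.55-fold higher as group means, with the day 3 call lost whichever library was left out. For STC2, fits without a library of a day kept the group mean of that day at a lower weight.

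Among markers of other cell types, CLDN4 had 24.2 and 26.4 normalised counts untreated, 74.5 and 79.3 on day 3, and 37.6 and 47.3 on day 4, and KRT19 had 1186 and 846, then 1625 and 1732, then 1218 and 1461. Both passed the test on day 3 and not on day 4. TEK, the angiopoietin receptor, was 2.06-fold lower on day 3 and 1.74-fold lower on day 4, while EGFL7 was 1.44-fold and 1.53-fold higher. MAP2, a neuronal microtubule protein, had 45.9 and 71.5 untreated, 15.4 and 9.64 on day 3, and 24.3 and 9.47 on day 4, with its call lost in 2 fits on each day.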
